A study of Phragmites australis with 7 samples.

Results

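The cells described here are the segmented cells of a bud section of common reed (Phragmites australis) that carried at least 2 raw counts of PDF1 (PaChr8.1038) and at least 100 detected genes. The rule found 8300 such PDF1-positive cells among 64404 segmented cells with at least 100 genes, of 78619 segmented cells in all. They were set against segmented cells with 0 PDF1 counts, of which 49122 had at least 100 genes, and the 6982 cells with exactly 1 count entered neither group. Because the members were chosen by PDF1, every value of PDF1 below is a description of that choice.

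The section was cut from frozen buds of NAint61, a plant of the North American invasive population, and has no replicate. The same series holds 6 single-cell RNA libraries of shoots (the protocol names the rhizome tip), from 3 invasive plants (NAint61, NAint113 and NAint191) and 3 European plants (EU60, EU78 and EU620), 1 library a plant. All plants grew untreated in a common garden, so no agent or genetic edit separates them. In the study, variants of the whole genome separated European from invasive plants. NAint61 gave both the section and 1 of the libraries. A segmented cell is an outline drawn by software on the stained image, so it can hold RNA of its neighbours and of tissue above or below it.

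PDF1, PROTODERMAL FACTOR 1, is a small proline-rich protein that in Arabidopsis is made in the outermost cell layer of the shoot meristem and of young organs. That layer, the protoderm, becomes the epidermis. It secretes lipid transfer proteins and builds the cuticle, a sheet of cutin polyester and wax, from very long-chain and hydroxylated fatty acids. Its identity in Arabidopsis depends on homeodomain regulators such as PDF2 and HDG2, which act on genes like PDF1. Gene symbols here are the best Arabidopsis hits given by the study, and roles are those known in Arabidopsis. Symbols came almost only from the study's tables of cluster markers. Gene lists made from them thus held genes picked as markers in these same data, and their counts are no independent evidence of direction.

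PDF1 itself had 49702 counts over the section. The positive cells held 85.8% of the PDF1 counts of all cells with at least 100 genes (95% exact binomial interval, 85.5% to 86.1%). Their median was 3 counts, the upper quartile 6, and the highest cell had 89. In all, 2742 members (33.0%) stood exactly at the threshold of 2 counts, 966 cells had at least 10 and 159 had at least 20. Just inside the threshold, cells with 2 counts averaged 2145 CPM of PDF1 (CPM is a gene's counts per 1000000 counts of the same cells). Just outside it, cells with 1 count averaged 1227 CPM. Intervals in this text cover counting error only, not differences between sections or plants.

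The PDF1-positive cells made up 12.9% of cells with at least 100 genes (12.6% to 13.1%), but were far from evenly spread. The section holds 2 large pieces of tissue, separated on the image by bare ground, and a fragment. In the smaller piece 6871 of 24096 cells were positive (28.5%). In the larger piece 1208 of 37817 were (3.19%). The fragment had none among its 442 cells, which allows a share of up to 0.679% (3 cells of that number, for counting error only). PDF1 averaged 138 CPM in the fragment, where the median total was 160.5 counts a cell. The smaller piece thus held 82.8% of the members with 37.4% of the cells. A further 221 members lay off these pieces, among 2049 scattered cells, where PDF1 averaged 1496 CPM and the median total count was 196. PDF1 averaged 1836 CPM in the smaller and 348 CPM in the larger piece. Median totals were 747 counts a cell in the smaller and 386 in the larger piece, and the part of this depth difference in the shares was not tested.

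**Figure D1:**
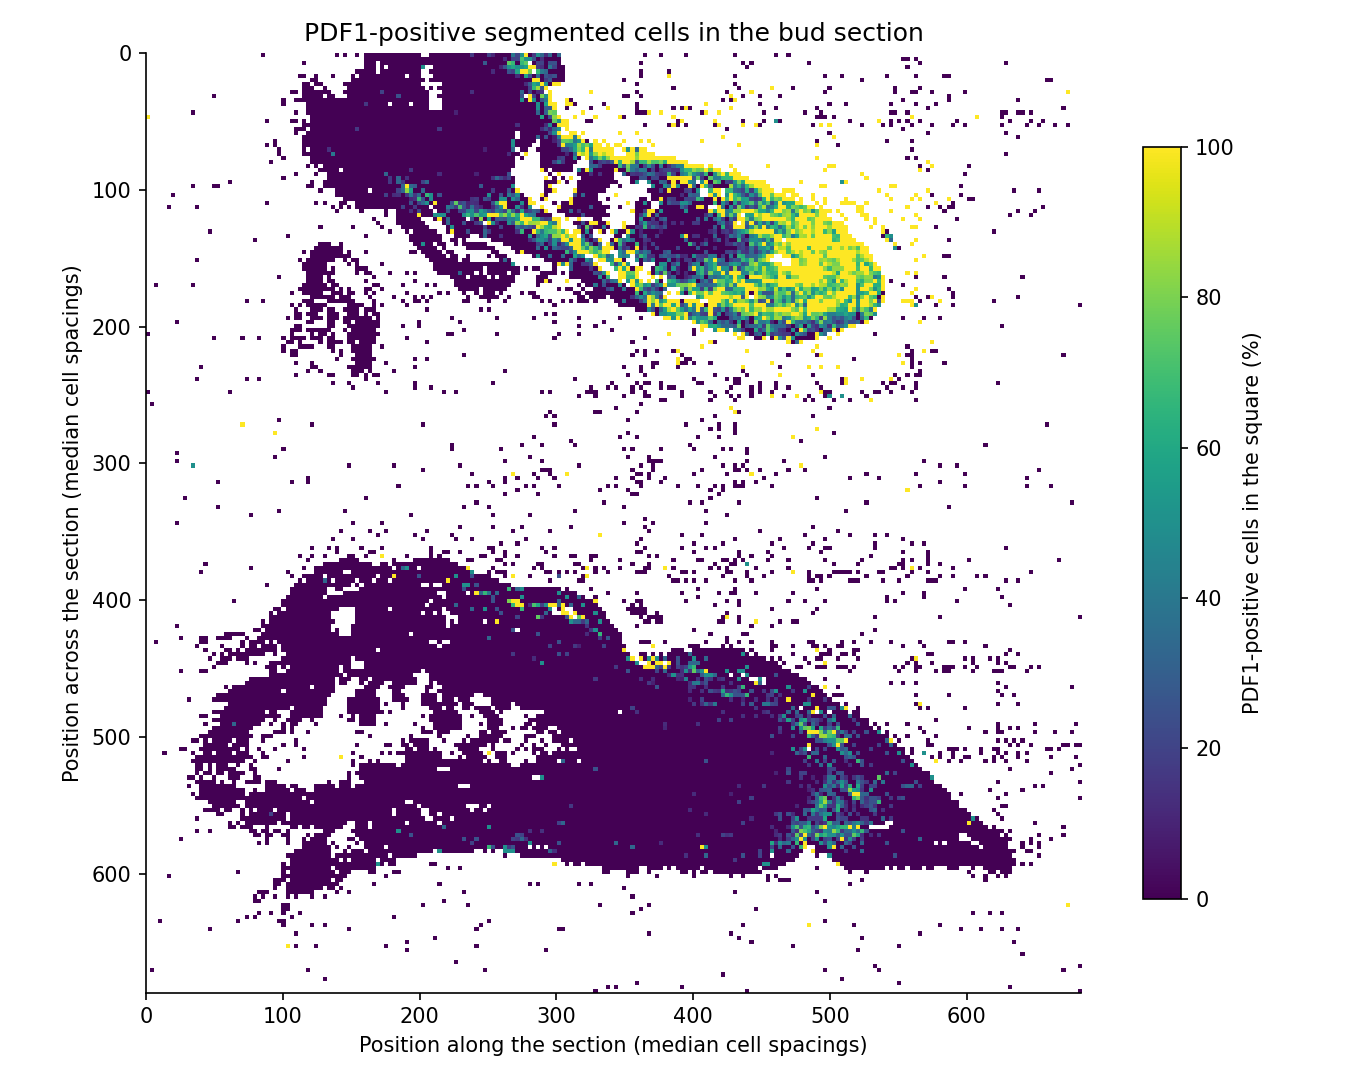
Share of PDF1-positive cells in squares 3 cell spacings wide over the section, with both axes in median cell spacings and white where no cell with at least 100 genes lay. The smaller piece (top) is bright at its right-hand end, along its upper rim and in a band inside its lower rim, around a dark inner area, while the larger piece (bottom) is dark outside a few bands.

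Along the long image axis the smaller piece changed from one end to the other. Each piece was cut into 10 equal steps along this axis. In step 1 of the smaller piece 0.389% of cells were positive. The share was 7.64% in step 4, lay between 25.9% and 29.1% in steps 5 to 7, and reached 45.3%, 74.7% and 78.3% in steps 8, 9 and 10. Median totals were 239 and 510 counts a cell in steps 1 and 2, where the share was lowest, lay between 709 and 913 in steps 3 to 10, and were 737 and 709 in steps 9 and 10, where it was highest. In the larger piece the share reached 14.1% in step 8 and 7.19% in step 9 and was at most 2.15% in the other steps. PDF1 averaged 926 CPM in step 8 and 865 CPM in step 9, where median totals were 558 and 337 counts a cell. In steps 4 and 7 the shares were 1.52% and 2.15%, PDF1 averaged 291 and 186 CPM, and median totals were 301 and 642. The part of depth in these shares was not tested. The map shows the members of the larger piece as narrow bands, some of them under the upper rim and at notches of the outline.

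**Figure D2:**
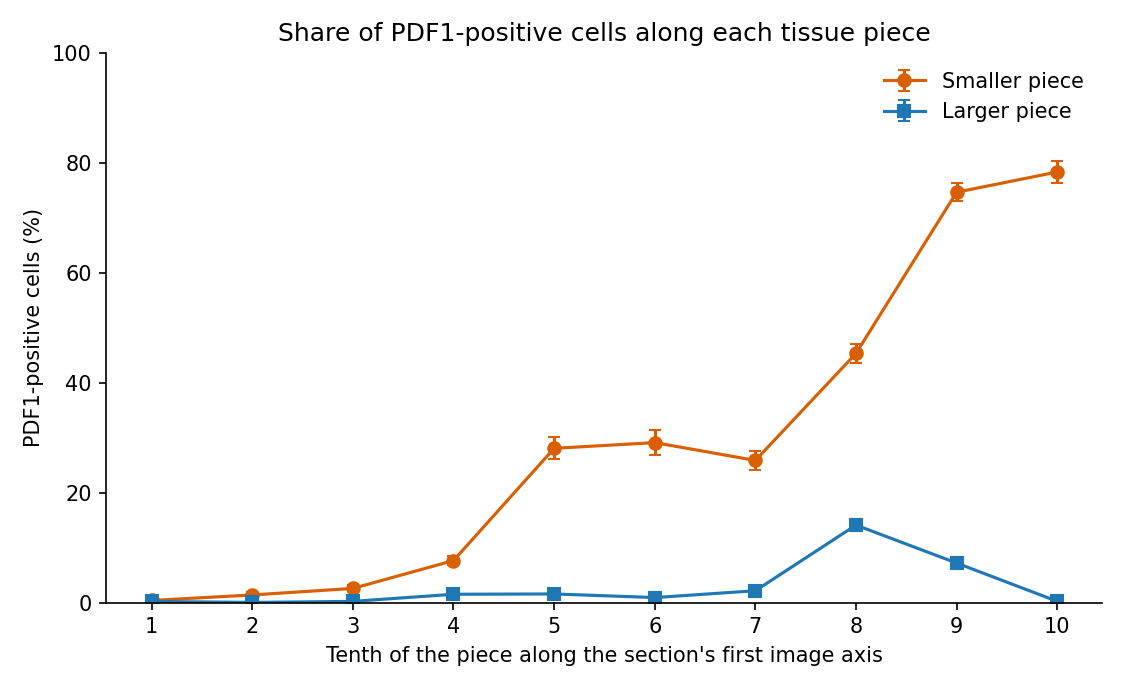
Percent of cells with at least 100 genes that were PDF1-positive, in 10 equal steps along the first image axis of each tissue piece, with exact 95% binomial intervals. The smaller piece climbs to 78.3% in step 10 and the larger piece peaks at 14.1% in step 8.

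Distance from the tissue outline was measured in median cell spacings, since the image scale is not given in the sources used here. PDF1-positive cells lay a median of 20.4 spacings from the outer edge, against 38.6 spacings for zero-count cells matched to them in total count. In the smaller piece alone the medians were 20.0 spacings in positive and 34.0 in zero-count cells. In the larger piece they were 24.1 spacings in positive and 41.6 in zero-count cells. Counting the borders of inner gaps as edges lowered the medians to 13.4 and 22.4 spacings in positive and zero-count cells of the whole section. The border of the image, where the smaller piece is cut off at its base, counted as an edge as well. The pieces differed in how the share changed with depth. In the smaller piece 41.6% of cells within 3 spacings of the outer edge were positive, the share was between 30.7% and 35.9% from 3 to 40 spacings, and 13.4% beyond 40. In the larger piece the share was 3.75% within 3 spacings, between 2.39% and 2.57% from 3 to 10, 5.74% from 10 to 20, 4.65% from 20 to 40 and 1.26% beyond 40, so it was not highest at the rim.

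Members lay next to each other. Of the 6 nearest cells of a positive cell, 60.9% were positive, against 3.79% for the matched zero-count cells. The contrast held in each piece, with 66.8% for positive and 6.98% for zero-count cells in the smaller piece, and with 29.2% and 1.73% in the larger. All 6 neighbours were positive for 1918 members (23.1%), and none was for 727 (8.76%). Patches were many cells wide. Around the 942 cells of the smaller piece with at least 10 PDF1 counts, the nearest cell averaged 7719 CPM of PDF1 and the 60th nearest, at a median of 5.59 spacings, still averaged 6436 CPM. How far RNA spread between neighbouring cells was not tested.

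To describe which other genes went with PDF1, 8189 positive cells were paired 1 to 1 with zero-count cells of nearly the same total count (median 939 in both groups), which left 111 members without a partner. Of 16329 genes with at least 500 counts over the section, 1092 had at least 2 times the CPM in positive cells (6.69%) and 2404 at most 0.5 times (14.7%). All 1092 had a counting interval for the ratio above 1, and for 807 of them its lower bound was at least 2. The median ratio over all these genes was 0.808, so a typical gene was slightly lower in positive cells. With 1 section there is no test of these ratios. A symbol was carried by 204 of the 1092 higher genes and by 853 of all 16329, and the lists below draw on these.

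Lipid transfer proteins, small secreted carriers of lipids to the surface, held the gene with the highest ratio of all. LTP3 PaChr22.1060 had 517 CPM in positive and 13.4 CPM in zero-count cells, 38.5 times as much (32.2 to 46.5). It was counted in 29.2% of positive and 1.37% of zero-count cells. A second LTP3 gene, PaChr10.1228, had 2417 CPM in positive and 166 CPM in zero-count cells (14.6 times), and was counted in 69.0% of positive and 12.5% of zero-count cells. The gene next to it in number, PaChr10.1229, also an LTP3, had 5950 CPM in positive and 1178 CPM in zero-count cells, a ratio of 5.05. Not every member of the family followed. LTP3 PaChr21.94 had 18.5 CPM in positive and 145 CPM in zero-count cells (ratio 0.128), and the lipid-anchored LTPG6 gene PaChr4.352 had 15.1 and 52.7 CPM (ratio 0.287). Of 14 lipid transfer genes with enough counts, 10 were at least 2-fold higher and 2 at least 2-fold lower, with a median ratio of 2.98 beside 0.808 over all genes.

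Genes of cuticle synthesis and export were higher as a group, with 24 of 29 at least 2-fold up, none at least 2-fold down and a median ratio of 3.20. CYP86A4, a fatty acid omega-hydroxylase of cutin synthesis, had 904 CPM in positive and 237 CPM in zero-count cells for PaChr5.1590 (ratio 3.81). The acyltransferase DCR (PaChr14.1471), needed for cutin, had 468 CPM in positive and 108 CPM in zero-count cells (4.33). CUS2, a cutin synthase that links cutin monomers outside the cell, stood lower, at 2.04 for PaChr6.2363 and 2.13 for PaChr5.2259. FDH (PaChr3.474), the FIDDLEHEAD enzyme of very long-chain fatty acid synthesis, had 677 CPM in positive and 284 CPM in zero-count cells (2.38). The smallest ratios were those of the elongase gene KCS11 PaChr25.362, at 1.07, and of both copies of the acyl-CoA synthetase CER8, at 1.31 for PaChr9.168 and 1.58 for PaChr12.158. Export was represented by the wax and cutin transporters ABCG11 (PaChr11.834, 3.22) and ABCG32 (PaChr2.572, 3.19).

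Structural proteins of the cell wall stood out further. Of the 12 listed genes for proline-rich and glycine-rich wall proteins 11 were at least 2-fold higher, with a median ratio of 5.41. The list held 8 copies of proline-rich protein PRP2, 6 of them on chromosome 25. The copy PaChr25.114 had 1597 CPM in positive and 123 CPM in zero-count cells (13.003) and PaChr25.113 had 973 and 84.1 CPM (11.6). PaChr18.194 had 3583 CPM in positive and 579 CPM in zero-count cells (6.19). The glycine-rich AT2G05540 pair was less marked, with a ratio of 2.57 for PaChr6.1298 and 1.96 for its neighbour PaChr6.1299. Such repeated copies can share reads, so values of single copies are uncertain.

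Other genes with a symbol among the 25 highest ratios are named with what they are known for. GGL19 (PaChr8.213), a GDSL-type lipase, had 400 CPM in positive and 20.3 CPM in zero-count cells, 19.7 times as much (16.99 to 22.99). A second GDSL lipase gene, GGL12 (PaChr13.837), had a ratio of 11.3. Flavonoid 3'-hydroxylase, CYP75B1 (PaChr2.1232), had 258 CPM in positive and 18.6 CPM in zero-count cells (13.85). Flavonol synthase, FLS1 (PaChr6.2126), had 157 CPM in positive and 13.5 CPM in zero-count cells (11.6). ARPN (PaChr3.2873), a plantacyanin, had 1111 CPM in positive and 89.5 CPM in zero-count cells (12.4), and SVB2 (PaChr22.346), a relative of a trichome size gene, had 462 and 30.7 CPM (15.04). Of these 25 genes, 10 carry a symbol in the study's tables, and PaChr15.1096, second at 25.4, does not. None of the 10 lowest genes carries one, and the lowest, PaChr10.554, had 0.540 CPM in positive and 11.97 CPM in zero-count cells (0.0451).

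With pairs over the whole section, the regulators of epidermal identity changed less than these products. Of 6 with enough counts 2 were at least 2-fold higher, both copies of MIXTA, a MYB factor of epidermal cell shape and cuticle, at 2.46 for PaChr5.1211 and 2.18 for PaChr6.1268. PDF2 had ratios of 1.96 for PaChr14.422 and 1.37 for PaChr7.353, and HDG2 (PaChr11.355) had 41.8 CPM in positive and 36.7 CPM in zero-count cells (1.14). The contrast was weaker with pairs taken within the same piece. There 4 of the 6 regulators were at least 2-fold higher, beside 22 of 29 cuticle genes, 10 of 14 lipid transfer genes and 12 of 12 wall protein genes. The 4 further PDF1 homologues went different ways. PaChr6.614 had 1891 CPM in positive and 394 CPM in zero-count cells (4.80) and PaChr5.597 had 854 and 184 CPM (4.63). PaChr1.150 was nearly level, with 158 and 135 CPM (1.17). PaChr2.689 had 18.1 CPM in positive and 63.8 CPM in zero-count cells, a ratio of 0.284, but came to 1.04 where pairs were taken within small tiles of the section.

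As a check of the label, markers that the study named for its single-cell clusters were counted. Of 48 epidermal cell 2 markers, PDF1 itself left out, 46 were at least 2-fold higher (median ratio 3.37). These lists were chosen by the study on single cells that include those of NAint61, so they are no independent evidence of direction. Epidermal cell 1 markers had 25 of 55 higher and 8 lower, and protoderm 1 markers 9 of 17 higher and 3 lower. With pairs taken within the same piece, 28 epidermal cell 1 markers were higher and 1 lower, and 12 protoderm 1 markers were higher and none lower. Markers of dividing and meristematic cells held no gene at least 2-fold higher. Of 269 G2/M phase markers 41 were at least 2-fold lower (15.2%, beside 14.7% of all genes), with a median ratio of 0.669, and within the same piece 12 were (4.46%, beside 5.51%). Of 92 markers of meristematic cells 19 were lower (20.7%), and within the same piece 11. Histones, the DNA-packing proteins made when cells replicate, had 6 of 29 genes lower (20.7%), with a median of 0.626, and 4 within the same piece. Epidermal markers were thus high in these cells, but they were not the only ones.

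Photosynthesis genes were higher in every case. All 36 nuclear photosynthesis genes had at least 2 times the CPM in positive cells, with a median ratio of 4.85. RBCS1A (PaChr6.850), the small subunit of the carbon-fixing enzyme Rubisco, had 1419 CPM in positive and 223 CPM in zero-count cells (6.36). LHB1B2 (PaChr12.1613), a light-harvesting antenna protein of photosystem II, had 1835 CPM in positive and 380 CPM in zero-count cells (4.83). Together the 36 genes made 1.87% of the counts of positive and 0.373% of those of zero-count cells, and at least 1 such count was found in 91.0% of positive and 57.9% of zero-count cells. Of 105 mesophyll markers 59 were higher and 2 lower (median 2.18). Xylem markers had 17 of 68 higher and none lower (1.54), and bundle sheath markers 17 of 80 higher and 2 lower (1.57). With pairs taken within the same piece, all 36 photosynthesis genes were again at least 2-fold higher, and 40 of 105 mesophyll markers were higher and 1 lower. Xylem markers then had 6 of 68 higher (8.82%) and 1 lower (median 1.14). Bundle sheath markers had 8 of 80 higher (10%) and 2 lower (median 1.24). Over all genes 4.84% were higher with these pairs and 5.51% lower. The part of neighbouring tissue in these mixed profiles was not tested.

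These ratios depended on how the pairs were drawn. Paired within the same piece of tissue, 790 genes were at least 2-fold higher (4.84% of those compared) and 899 at least 2-fold lower (5.51%), of which 728 and 752 were shared with the pairing over the whole section. Paired instead within tiles 20 cell spacings wide (3088 pairs, an alternative chosen after the data were seen), 32 genes were higher (0.196%) and 80 lower (0.49%), and 10 of the 1092 higher genes stayed above the 2-fold mark. Only 2 of the 25 highest genes did so there, PaChr14.807 at 3.23 and the joined model PaChr25.477_PaChr25.478 at 2.05, while LTP3 PaChr22.1060 reached 1.98. Zero-count cells of these pairs lay among members, since 41.0% of the 6 nearest cells were positive for the positive cells of the pairs and 21.1% for the zero-count cells. The tiles also changed which members were kept. Members paired over the whole section had 60.9% positive neighbours and a median total of 939 counts, against 746 here (726.5 in zero-count cells). The smaller piece held 66.2% of the tile pairs and 82.8% of all members. The parts of the members kept and of the zero-count cells drawn were not tested.

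The lists parted under this local pairing. Cuticle genes kept a median ratio of 1.41, lipid transfer proteins 1.48, wall proteins 1.38 and epidermal cell 2 markers 1.41, beside 0.968 over all genes. Photosynthesis genes came to 0.944, mesophyll markers to 0.9502 and histones to 1.00. Other epidermal lists came lower, with 1.25 for epidermal cell 1 markers, 1.15 for the regulators and 1.05 for protoderm 2 markers, and protoderm 1 markers had 1.39. The photosynthesis median lay close to that of all genes. In these lists 1 gene passed the 2-fold mark there, a protoderm 2 marker that was lower.

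**Figure D3:**
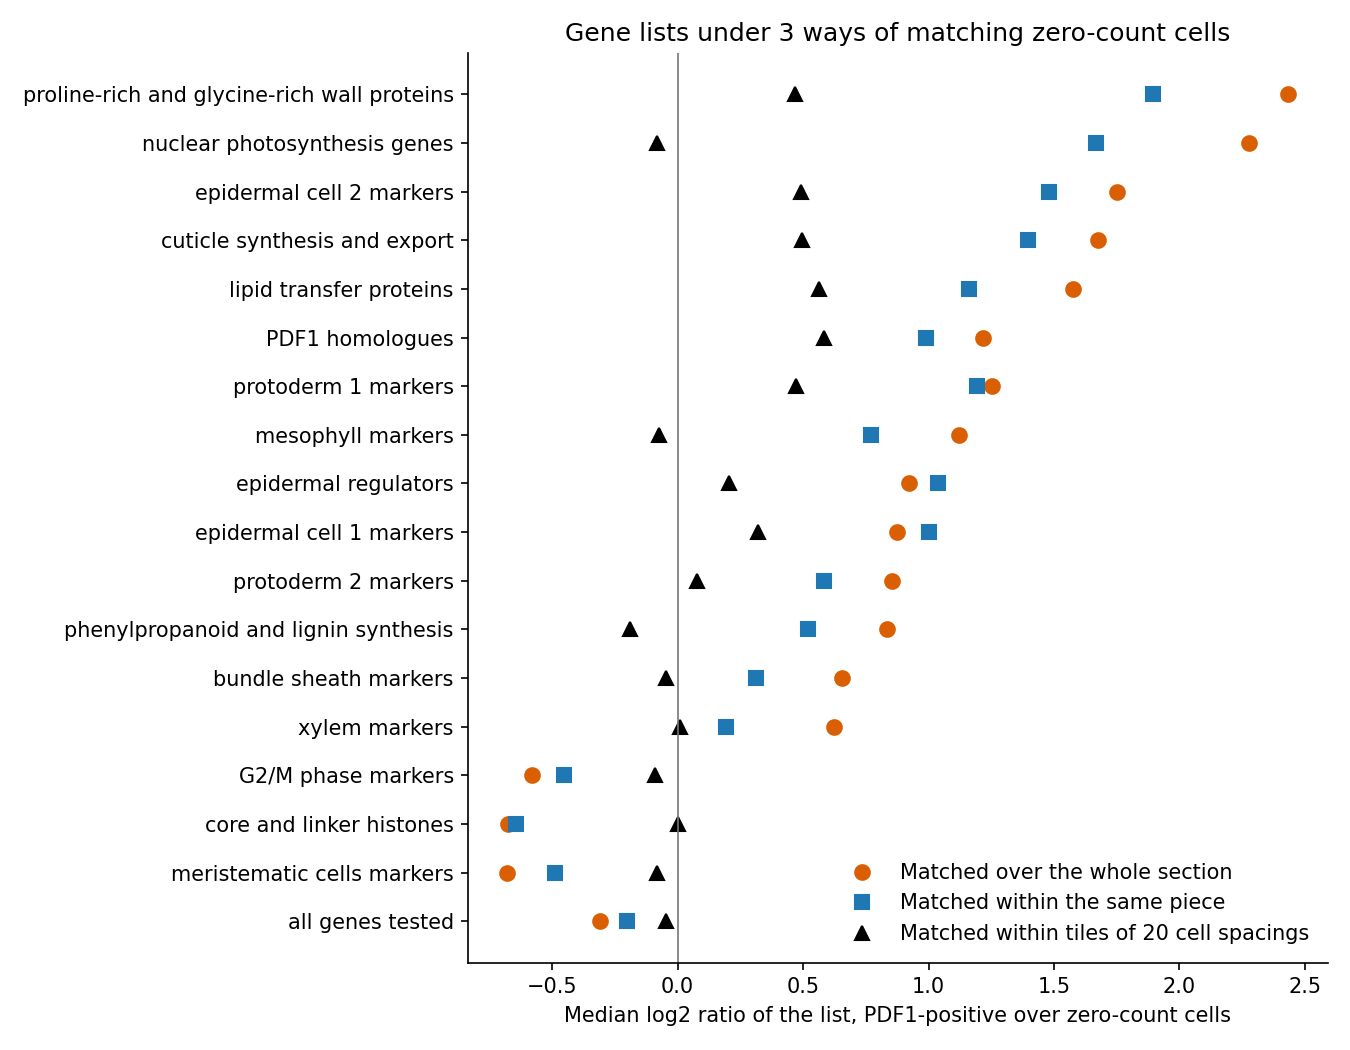
Median log2 ratio of each gene list, positive over zero-count cells, with the zero-count cells matched in total count over the whole section (circles), within the same piece (squares) or within tiles of 20 cell spacings (triangles). Under tiles the photosynthesis list lies at -0.084 and the cuticle list at 0.50, while over the whole section both lie above 1.6.

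Levels also changed with the PDF1 count of the cell. LTP3 PaChr10.1228 had 263 CPM in cells with 0 PDF1 counts, 683 CPM with 1, 1169 with 2, 1651 with 3 to 4, 2648 with 5 to 9 and 4684 CPM with 10 or more. LTP3 PaChr22.1060 had 24.7 CPM in cells with 0 counts, 188 CPM in those with 2 and 1129 CPM in those with 10 or more. Both climbed at every step, without a plateau. The summed nuclear photosynthesis genes had 3114 CPM in cells with 0 counts, 13478 CPM with 2 and 23137 CPM with 10 or more, and the summed G2/M phase markers had 63832 CPM with 0 counts and 37114 CPM with 10 or more. PaChr2.689, the PDF1 homologue that went the other way, had 48.3 CPM with 0 counts and 8.28 CPM with 10 or more. Cells with more PDF1 also had more counts in all, with medians of 407 counts at 0, 715 at 2 and 1607.5 at 10 or more. These bins are matched neither in total count nor in piece of tissue. Of the 966 cells with 10 or more PDF1 counts, 942 lay in the smaller piece. The part of the piece in these changes was not tested.

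**Figure D4:**
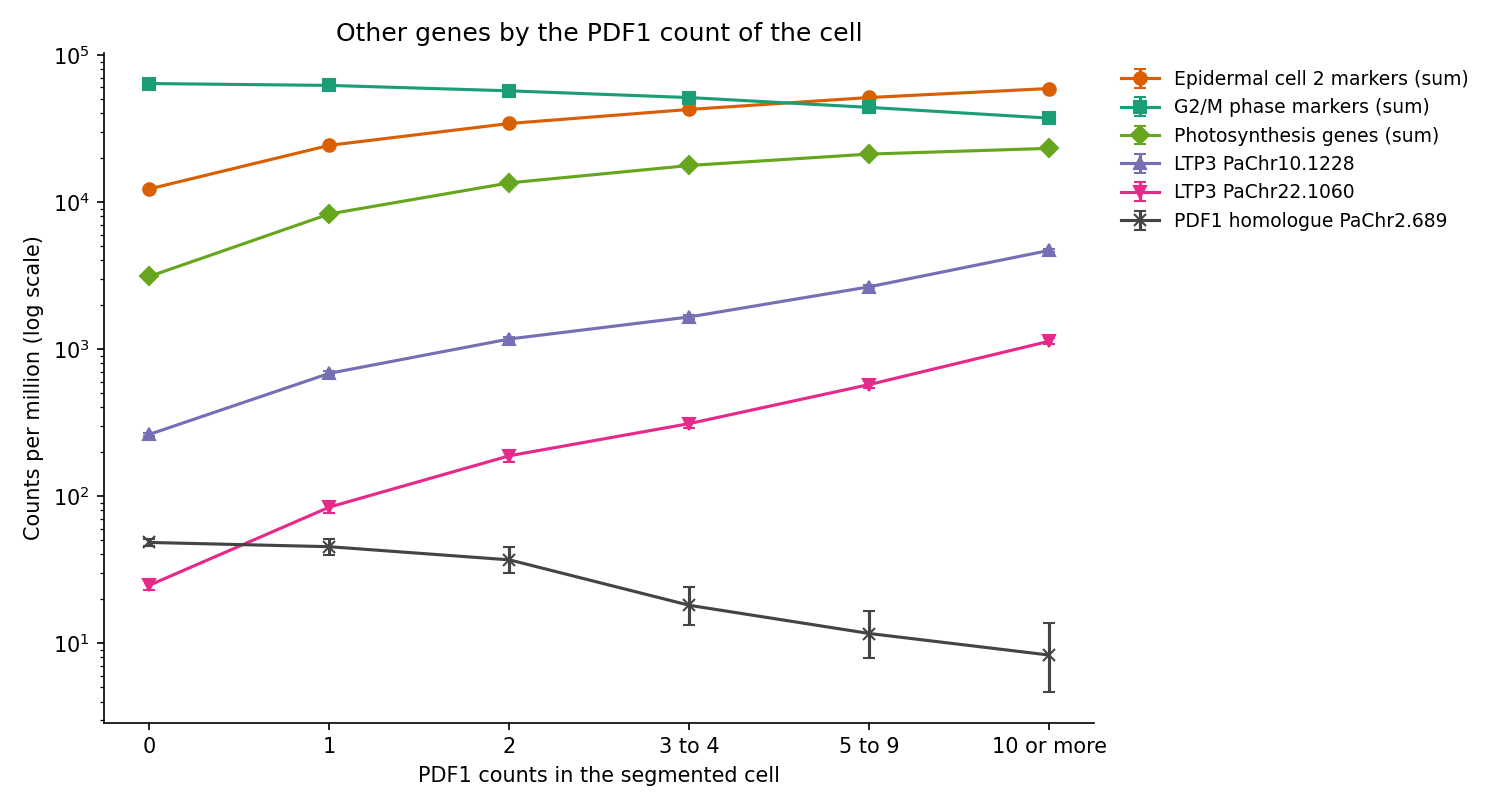
CPM of 3 genes and 3 summed gene lists in segmented cells grouped by their PDF1 count, on a log scale, with exact 95% Poisson intervals. Both LTP3 genes climb at each step, reaching 4684 and 1129 CPM, and PaChr2.689 drops to 8.28 CPM.

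Positive cells were not all alike, and 2 comparisons among them, chosen after the data were seen, describe how they varied. The first set 866 members within 6 spacings of the outer edge of the smaller piece against as many, matched in total count, lying at least 20 spacings inside. Of 2520 genes with at least 200 counts, 219 were at least 2-fold higher near the edge (8.69%) and 99 at least 2-fold lower (3.93%). Both glycine-rich genes were among them, with 5500 CPM near the edge and 754 CPM inside for PaChr6.1298 (7.29) and 857 and 113 CPM for PaChr6.1299 (7.59). The elongase genes KCS12 (PaChr5.2239, 8.18) and KCS11 (PaChr4.335, 3.50), the transporter ABCG11 (PaChr11.834, 4.93), LTP3 PaChr10.1229 (2.85) and LTP1 PaChr22.1061 (2.47) were also higher near the edge. Higher inside were PRP2 PaChr25.114, with 747 CPM near the edge and 2185 CPM inside (0.342), CER8 PaChr9.168 (0.229), the transporter ABCG32 PaChr2.572 (0.418) and CYP86A4 PaChr5.1590 (0.478). Of the photosynthesis antenna genes, LHCB2 PaChr3.1750 had 672 CPM near the edge and 1184 CPM inside (0.567). LTP3 PaChr10.1228 differed little, with 2446 CPM near the edge and 2144 CPM inside (1.14). Members of 1 list, such as both transporters, thus differed in direction between outer and inner positive cells.

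The second set 1207 members of the larger piece against 1207 of the smaller, again matched in total count. Of 1894 genes, 256 were at least 2-fold higher (13.5%) and 493 at least 2-fold lower (26%) in the larger piece. Among the 15 lowest ratios were genes of antenna and electron transport proteins, of which 3 are given. LHB1B2 PaChr2.1265 had 16.7 CPM in the larger and 1206 CPM in the smaller piece (0.0139), LHCB2 PaChr3.1750 had 21.7 and 1076 CPM (0.0201), and plastocyanin PETE1 (PaChr13.3) had 13.785 and 667 CPM (0.0207). Some surface genes differed much less. LTP3 PaChr10.1228 had 2136 CPM in the larger and 2610.0 CPM in the smaller piece (0.818), FDH PaChr3.474 had 535 and 707 CPM (0.756) and the glycine-rich PaChr6.1298 had 2138 and 1812 CPM (1.18). Others did not keep level, among them PRP2 PaChr25.114 (0.164) and the PDF1 homologue PaChr6.614, with 329 CPM in the larger and 2156 CPM in the smaller piece (0.153). Higher in the larger piece were GCT (PaChr22.378), a subunit of the Mediator complex that links regulators to RNA polymerase, with 1250.5 CPM in the larger and 48.2 CPM in the smaller piece (25.9), and XTH9 (PaChr11.335), a wall-loosening enzyme, with 193 and 9.85 CPM (19.6). Over the whole section both were lower in positive than in zero-count cells, at ratios of 0.175 for PaChr22.378 and 0.122 for PaChr11.335.

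Within the larger piece alone, 12 of the 36 photosynthesis genes were at least 2-fold higher in positive than in zero-count cells (median 1.66), against 37 of the 48 epidermal cell 2 markers (median 2.91) and 11 of the 12 wall protein genes (median 5.71). Over all 16329 genes 4.89% were at least 2-fold higher there and 5.12% at least 2-fold lower. The 36 photosynthesis genes together had 1434 CPM in positive and 854 CPM in zero-count cells of that piece. The same sum was 20912 CPM in positive and 6358 CPM in zero-count cells of the smaller piece.

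Single cells of the 6 plants, which the rule did not use, allowed a test across plants. Each cell with at least 500 genes was thinned to 949 UMIs (molecule counts), the median total of the positive segmented cells rounded down, and called PDF1-positive at 2 or more UMIs of the thinned count. This gave 157 of 10886 cells in EU60 (1.44%), 30 of 11579 in EU78 (0.259%), 542 of 6452 in EU620 (8.40%), 209 of 7060 in NAint61 (2.96%), 76 of 14073 in NAint113 (0.540%) and 1017 of 11209 in NAint191 (9.07%). Without thinning the shares ran between 0.592% in EU78 and 28.2% in EU620. Both libraries with the most members, EU620 and NAint191, are the pair that the labels put in batch 2, so batch and share cannot be told apart, whereas positive and zero-count cells were compared within each library. PDF1 averaged between 11.7 and 1360 CPM over all cells of a library, pairs of libraries shared 14 to 52 cell barcodes, and the part of free RNA in the shares was not tested.

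Zero-count single cells had 0 UMIs of PDF1 in the thinned count, so they could hold some before thinning. Their unthinned PDF1 level ran from 0 CPM in EU78 to 71.2 CPM in NAint191. Unthinned counts were summed over positive and over matched zero-count cells of each library and tested with edgeR's quasi-likelihood test, with plant as a block. Of 20132 genes, 2403 were called higher in positive cells (11.9%) and 2571 lower (12.8%), at an adjusted p under 0.05 and a change of more than 2-fold. Of the 1092 genes higher in the section 1001 could be tested here, and 485 of them (48.5%) were called higher and 265 (26.5%) lower. Of the 2404 genes lower in the section 1714 could be tested, and 25 (1.46%) were called higher and 693 (40.4%) lower. Over all 14407 genes tested in both, 10.00% were called higher and 12.7% lower. The lower calls depended on how positive cells were picked. Picked from unthinned counts, 1542 genes were called higher and 227 lower, and 103 of the 2571 lower calls (4.01%) were shared. The genes lower in the section were then called lower in 2.85% of cases, beside 0.687% of all genes tested in both, and those higher in the section were called higher in 38.9% and lower in 1.72%. Without plant as a block 751 genes were called higher and 296 lower, among them 7.64% of the genes lower in the section called lower, beside 1.55% of all.

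Surface genes rose in single cells too. LTP3 PaChr22.1060 had at least 523 CPM, a median of 817 and at most 1528 CPM in positive cells, against 0, 0.891 and 135 CPM in zero-count cells, and the groups did not overlap (log2 fold change 6.50 ± 0.68 SE, adjusted p = 8.12e-06, n = 6 plants). LTP3 PaChr10.1228 had a lowest, median and highest value of 1146, 3934 and 11413 CPM in positive cells, against 0, 6.66 and 283 CPM in zero-count cells (7.61 ± 0.66, adjusted p = 1.73e-06). GGL19 PaChr8.213 had 82.8, 123 and 204 CPM in positive cells, against 0, 0 and 0.668 CPM in zero-count cells (7.95 ± 0.37, adjusted p = 2.8e-08). All 3 were higher in positive cells in each of the 6 plants. Against a group with libraries at 0 the fitted value depends on the prior count and is no bound. Of the 25 genes highest in the section 24 could be tested, and 21 were called higher and 1 lower. PaChr23.295 was the gene called lower, with 0, 0.257 and 5.19 CPM in positive cells and 0, 4.17 and 29.2 CPM in zero-count cells (-2.33 ± 0.35, adjusted p = 0.000208), lower in 5 of 6 plants and at 0 in both groups of EU78.

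By list, 25 of 31 cuticle genes, 11 of 14 lipid transfer proteins, all 10 wall protein genes tested and all 48 epidermal cell 2 markers were called higher in single cells. The study chose all its marker lists on these same libraries, and PDF1 is an epidermal cell 2 marker itself. Counts of markers called in single cells are therefore no independent test. All 7 regulators were called higher. With plant left out as a block, 2 of the regulators and 5 of the 10 wall protein genes were. MYB94 (PaChr3.1439), a regulator of wax synthesis with too few counts in the section, changed by 2.52 ± 0.20 (adjusted p = 6.43e-07), PDF2 PaChr14.422 by 1.97 ± 0.22 (adjusted p = 1.38e-05) and HDG2 PaChr11.355 by 1.13 ± 0.21 (adjusted p = 0.000729). The PDF1 homologues were split here too. PaChr6.614 (6.56 ± 0.79, adjusted p = 2.49e-05) and PaChr5.597 (5.57 ± 0.56, adjusted p = 5.77e-06) rose, PaChr2.689 fell in 6 of 6 plants (-1.29 ± 0.33, adjusted p = 0.00716), and PaChr1.150 did not pass the test (0.46 ± 0.37, adjusted p = 0.357). The change of PaChr2.689 came to -0.89 without EU620, short of 2-fold. Without plant as a block 0 of 4 homologues were called lower. In the section, 0 of 4 were at least 2-fold lower with pairs taken within the same piece. Both copies of CER8 missed the test as well, at 0.32 ± 0.38 for PaChr12.158 (adjusted p = 0.559) and -0.65 ± 0.30 for PaChr9.168 (adjusted p = 0.107). Histones had 18 of 31 genes called lower and none higher, and G2/M phase markers 172 of 303 lower and 2 higher. The number of those calls changed with the setting. Histone genes called lower numbered 3 of 31 without EU620, 4 of 31 without NAint113, 7 of 31 without EU60 and 11 of 31 without NAint191. They numbered 14 of 31 without EU78, 22 of 31 without NAint61 and 20 of 31 with DESeq2. Without plant as a block or without thinning 0 of 31 were called lower. The summed histone level was higher in positive cells of NAint61 (3866 CPM in positive and 3417 CPM in zero-count cells) and of EU78 (2009 and 1802 CPM), and 2 histone genes were lower in all 6 plants. G2/M phase markers called lower numbered 25 of 303 without the block, beside 296 of all 20132 genes tested. Without thinning they numbered 5 of 317, beside 227 of all 24935 genes. With 1 library left out they ran from 132 of 299 (without EU620) to 196 of 300 (without NAint61), and DESeq2 gave 180 of 303.

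Photosynthesis genes differed in direction between the 2 kinds of data. All 36 were called lower in PDF1-positive single cells, with a median log2 fold change of -2.16 beside 0.03 over all genes. Their summed level had a lowest, median and highest value of 13.4, 211 and 1252 CPM in positive cells, against 109, 1429 and 8553 CPM in zero-count cells, so the groups overlapped between plants, but the ratio within a plant was between 0.0545 and 0.306 in all 6. Some of these ratios rest on few molecules. Positive cells had 21.8 CPM of 183671 UMIs in EU78 and 13.4 CPM of 669195 UMIs in NAint113, the plant with the lowest ratio. In NAint61, the plant of the section, the sum was 373 CPM in positive and 2465 CPM in zero-count single cells. For LHB1B2 PaChr12.1613 the change was -2.10 ± 0.30 (edgeR adjusted p = 0.000141), lower in 5 of 6 plants and at 0 in both groups of EU78, where the section gave a ratio of 4.83 over all tissue and 0.957 within tiles. RBCS1A PaChr6.850 fell by 1.79 on the log2 scale (SE 0.28, adjusted p = 0.000273), where the section gave 6.36 and, within tiles, 1.03. All 36 fold changes stayed below 0 in every alternative fitted, but 0 of 36 were called lower with plant left out as a block (median -1.98) and 7 of 36 with positive cells picked from unthinned counts (median -0.90). Mesophyll markers had 74 of 108 called lower and 6 higher, but 1 of 108 called lower without the block and 6 of 108 without thinning. Xylem markers had 42 of 68 called higher and 1 lower, and 15 called higher without the block. The difference between section and single cells was not tested, as the section has no replicate, and single cells had been freed from the tissue while segmented cells had not.

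**Figure D5:**
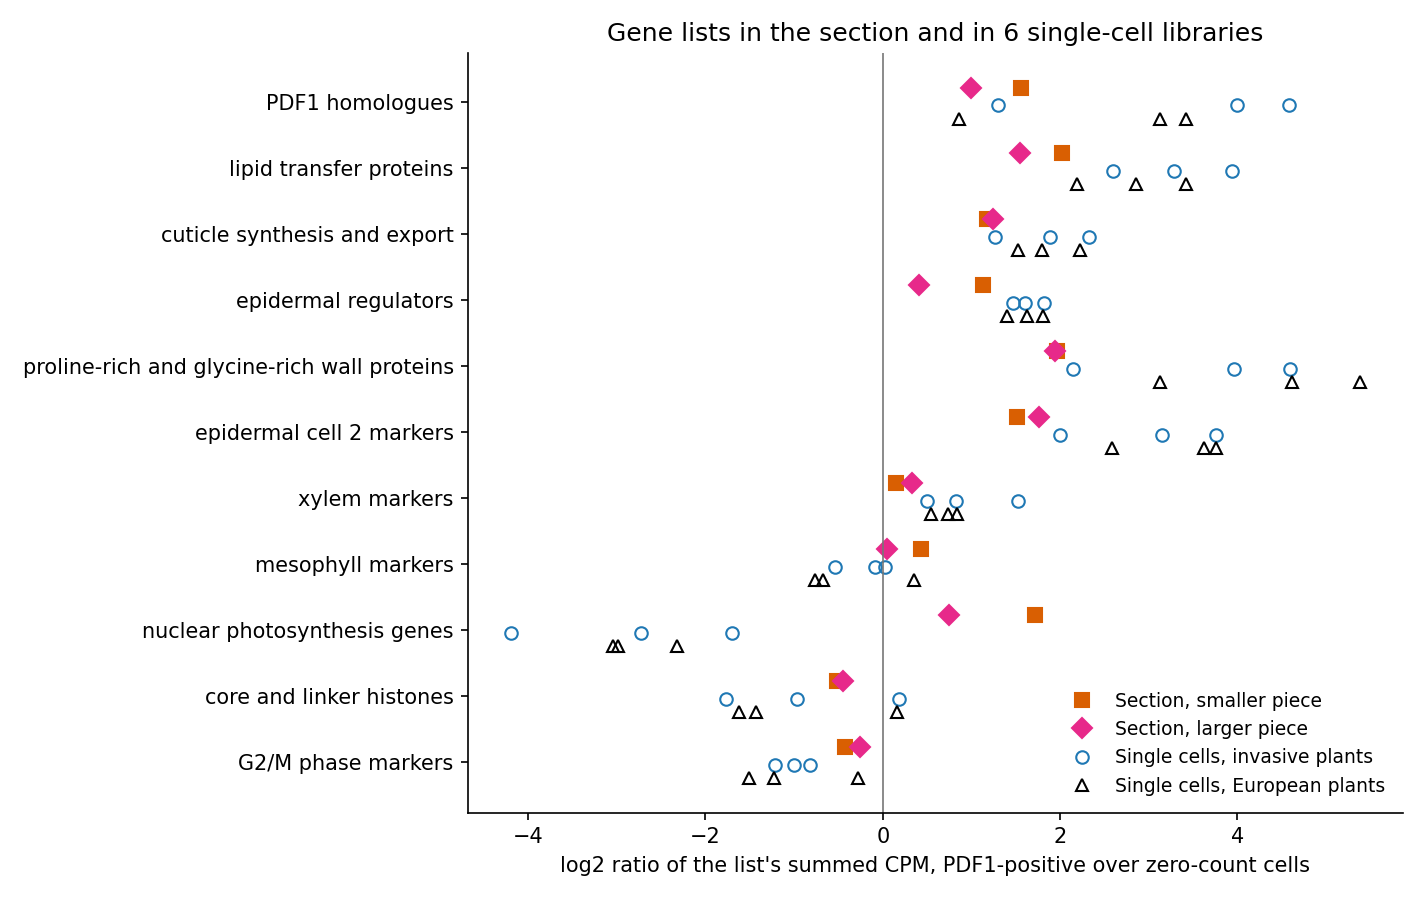
log2 ratio of the summed CPM of each gene list, PDF1-positive over zero-count cells, in each piece of the section (filled) and in the 6 single-cell libraries (open, 1 symbol a plant). Surface lists lie right of 0 throughout, and the photosynthesis list lies right of 0 in both pieces and left of 0 in all 6 libraries.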

How the data were processed

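The authors deposited whole-number counts per gene: UMI counts per cell barcode for 6 libraries (Cell Ranger 8.0 per the labels) and, for the section, counts per segmented cell made with STAR, BSTMatrix and Cellpose on a modified reed assembly with lifted-over annotation. The position file as deposited holds whole-number image coordinates of each cell's centre, with no stated scale (unit score). Cells with fewer than 100 (section) or 500 (single-cell) genes were left out. Doublets were not removed and no chloroplast or mitochondrial filter was applied here. Columns of other samples numbered 0.

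Members, lists and tests were chosen with earlier results of these data known. Marker lists were chosen by the study on these samples, and the functional lists were drawn by name almost only from genes of its marker tables. The rule for named genes took the 25 highest and 10 lowest ratios among genes with at least 500 counts, PDF1, and list members, all counted and those with most counts named. Some list members, and GCT and XTH9, were named after their values were seen, and tiles, outer against inner and larger against smaller piece were chosen then too. A result on a further list member is not reported here.

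Each positive cell was paired with the unused zero-count cell nearest in total count, at most 10% apart, with ties broken at random (seed 1). Tissue pieces were outlined on a grid of 2 cell spacings, keeping pieces with at least 200 cells. A sum of 0 was set to 3 counts in a ratio. Positive and zero-count cells of each library were matched likewise, summed and tested with edgeR 4.0.16 (TMM, 12 sums, total of at least 120 counts, Benjamini-Hochberg), and DESeq2 1.42.0 was an alternative. Both sums of a library come from 1 plant, so plant was a block. The p-values thus measure how the difference between positive and zero-count cells of a plant varies over plants, not the spread of levels between plants. Kept segmented cells held 101 to 11222 counts (median 477). The scripts were tested on simulated data. Python 3.11.15, numpy 2.4.6, scipy 1.17.1 and R 4.3.3 were used.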

Additional observations from a re-analysis of the deposited data

How the results depend on the processing

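The number of positive cells was 15282 at 1 or more PDF1 counts and 3063 at 5 or more, against 8300. Genes at least 2-fold lower numbered 899 with pairs from the same piece, 836 in the larger and 1206 in the smaller piece alone, against 2404. Within tiles 32 genes were higher and 80 lower. A minimum of 100 counts gave 2005 higher and 5334 lower genes (7.79% and 20.7% of those compared), 2000 counts gave 425 and 441 (8.82% and 9.16%), and no minimum gave 3993 and 8363 (11.4% and 23.9%), and the cause was not tested. The share of positive neighbours was 59.9% over 12 nearest cells, 57.4% at 3 or more and 50.3% at 5 or more PDF1 counts. The median distance from the edge was 23.4 spacings on a wider grid and 13.4 with inner gaps as edges.

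Tiles turned the direction of the photosynthesis (-0.084) and mesophyll (-0.074) medians. Among the genes followed one by one, which were only a part of all genes, 7 turned. These were PaChr15.847 (1.09), PaChr19.67 (0.44), PaChr2.689 (0.061), LHB1B2 PaChr12.1613 (-0.064) and PaChr20.1112 (-0.041), LHCB2 PaChr3.1750 (-0.070) and H1.2 PaChr16.1251 (0.014), all log2 ratios. Further genes turned as well, since all 36 photosynthesis genes were higher over the whole section and their median was negative within tiles. The number of turned genes over all genes is not given, and the cause was not tested.

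In single cells, leaving the plant block out of the model gave 751 genes called higher and 296 lower, of which 751 and 295 were among those called with the block, whose pairing comes from the plant. Positive cells called without thinning gave 1542 higher and 227 lower. Leaving out 1 library gave 1876 to 2439 higher and 1626 to 2741 lower genes, with the fewest lower genes without EU620. DESeq2 called 1969 higher and 2728 lower. A single section and as few as 30 positive cells in EU78 limit what can be resolved.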
